A study of Danio rerio with 20 samples.

Results

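Transcript levels of 5 zebrafish genes of skeletal muscle outside the contractile protein families were followed in whole embryos: myod1, chrna1, unc45b, hsp90aa1.1 and desma. The choice was made by name, through the RefSeq identifier that the array design gives for each probe. Earlier results of these data were known when the genes were chosen. They are 5 of 14657 genes on the array, of which 11433 were bright enough to be tested, and all 5 were among these. Each was read by 1 probe in 1 spot, which was well above background on all 20 arrays and was neither saturated nor marked as an outlier on any of them.

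Embryos were exposed from 0.5 to 24 h post fertilization, for 24 h in the labels' words, in batches of 100 embryos per treatment. The 4 groups, of 5 independent replicates each, received 0.1% ethanol as the control, 10 µM cyclopamine, 10 µM SANT-2 or 10 µM GANT-61. No genotype or strain is given in the labels, which give an ethanol percentage for the control group only. Beyond the exposure, the labels name no difference between the groups. Total RNA of the pooled embryos was labelled with Cy3 and hybridised to 1-colour Agilent arrays, 1 array per replicate. Cyclopamine and SANT-2 are known to block Smoothened, the membrane protein through which the Hedgehog signal passes, and GANT-61 is known as an inhibitor of the Gli transcription factors at the end of that pathway.

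In vertebrate embryos the muscle of the trunk forms in the somites, where transcription factors of the MyoD family switch precursor cells to the muscle programme. In the zebrafish, the cells next to the notochord express myod1 under Hedgehog signalling and become slow muscle fibres, whereas most of the fast fibres form farther from the midline. A new fibre then has to fold its myosin with the help of chaperones, anchor its myofibrils through desmin and gather acetylcholine receptors under the motor nerve endings. The 5 genes stand for these steps: myod1 for commitment, chrna1 for the receptor, unc45b and hsp90aa1.1 for myosin folding, and desma for the filaments that hold the myofibrils.

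Levels are given as log2 intensity relative to the 75th percentile of signal on the same array, so that a level of 0 is that percentile and a difference of 1 is a doubling. Differences come from limma's moderated test in 1 model over all 20 arrays, and an adjusted p is a Benjamini-Hochberg value over all 11433 genes. Genes with an adjusted p under 0.05 are referred to as called. Levels of different probes are not comparable with each other. The RNA came from whole embryos, so fewer cells of a type and less RNA per cell cannot be told apart in any value here.

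The 20 arrays lay on 4 slides, each of which held all 4 groups, though not in equal numbers. Ethanol and cyclopamine had 2 arrays on slide 1, SANT-2 had 2 on slide 2 and GANT-61 had 2 on slide 3. On every other slide a group had 1 array. Ethanol and cyclopamine were thus laid out alike, so their difference without a slide block carries no difference between slides. Differences without a slide block that involve SANT-2 or GANT-61 do carry part of the differences between slides. The 75th percentile of signal was between 565 and 762 on the arrays of slide 2 and between 1125 and 2060 on the other slides, and the number of probes well above background ran from 10038 to 12610 per array. Slide accounted for 60.1% of the sum of squares within groups for myod1, 55.5% for chrna1, 81.2% for unc45b, 54.0% for hsp90aa1.1 and 57.3% for desma. Any such block takes some share, and the share over all genes was not computed. With slide in the fit the residual SD went from 0.22 to 0.16 for myod1, 0.21 to 0.16 for chrna1 and 0.26 to 0.13 for unc45b. For hsp90aa1.1 it went from 0.34 to 0.25 and for desma from 0.46 to 0.33. For this reason values within slides stand beside the pooled ones. All 3 comparisons with the control use the same 5 ethanol arrays.

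Levels of myod1 and chrna1 were lower with cyclopamine than with ethanol, and no call was made for any of the 5 genes with SANT-2 or GANT-61 against ethanol. Against ethanol, 2 of the 5 genes were called lower with cyclopamine, where 0.84% of all genes tested were called lower and 0.875% in either direction. Because the genes were chosen with earlier results known, this contrast is no test of the set. All 5 differences were below 0, with a median of -0.50, while the median over all genes tested was 0.03. The differences of unc45b, hsp90aa1.1 and desma were between -0.50 and -0.46 and did not pass the adjusted test. In the fit with slide as a block 3 of the 5 were called, unc45b being added, where 1.69% of all genes were called lower. With the replicate block 4 of the 5 were called, hsp90aa1.1 being added too, where 1.86% of all genes were called lower. Among the settings run, hsp90aa1.1 was called only with the replicate block (adjusted p = 0.0478, limma). With slide as a block the adjusted p of hsp90aa1.1 was 0.116. The replicate block was fitted over the arrays of all groups. Replicate numbers of SANT-2 and GANT-61 did not always share a slide with those of ethanol, and they showed no pairing beyond the slide. All 5 genes were lower with cyclopamine on each of the 4 slides, as 11.2% of all genes were, and in each of the 5 pairs of arrays with the same replicate number, as 8.54% of all genes were.

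**Figure D1:**
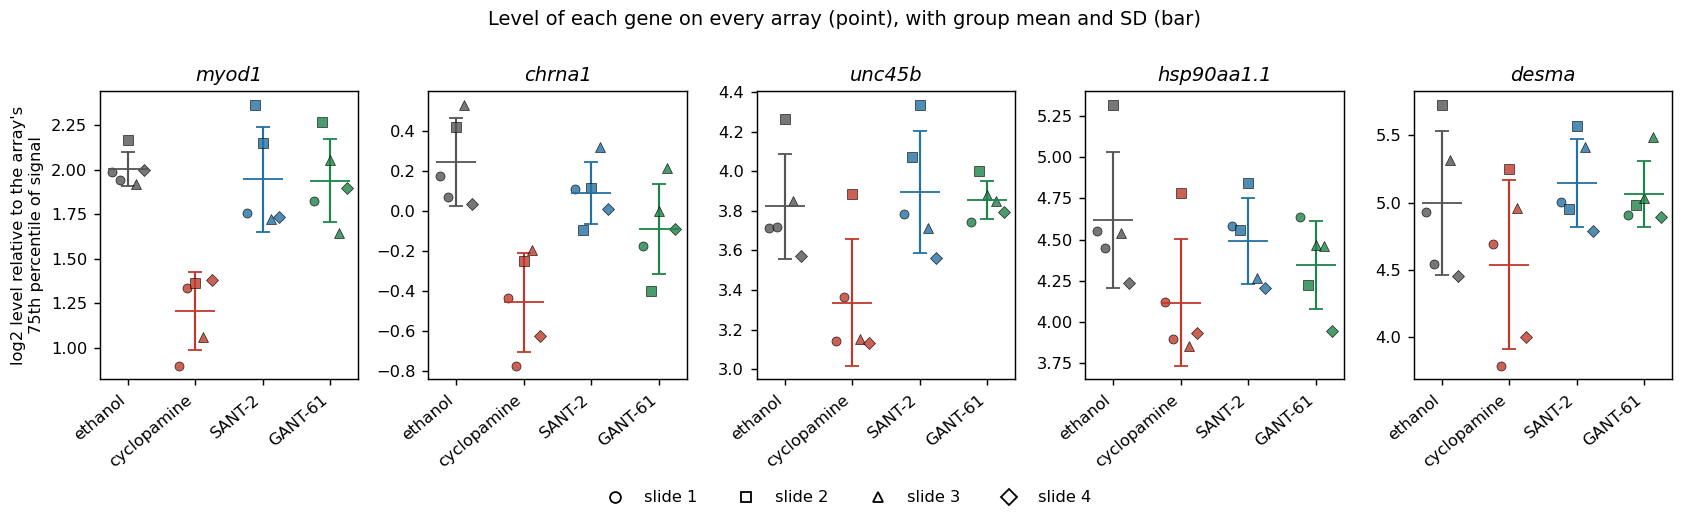
Log2 level of each gene on every array, relative to the array's 75th percentile of signal, by group, with 5 arrays per group. Points are arrays, symbols are slides, and the bars give the group mean and SD. For myod1 the 5 cyclopamine arrays lie between 0.90 and 1.38, below every array of the other groups, while for desma the groups overlap.

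The gene myod1 encodes MyoD, the basic helix-loop-helix factor that commits somite cells to muscle. Its levels on the ethanol arrays were 1.99, 1.94, 2.16, 1.92 and 2.00 for replicates 1 to 5. With cyclopamine they were 0.90, 1.34, 1.37, 1.06 and 1.38. Every cyclopamine array was thus below every ethanol array, a separation in this direction found for 1.4% of all genes.

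With SANT-2 the levels of myod1 were 1.76, 2.37, 2.15, 1.72 and 1.74, and with GANT-61 they were 1.83, 2.27, 2.06, 1.65 and 1.90. Both of these groups overlapped with the ethanol arrays, the highest array of each lying on slide 2. In each of the 2 groups, 3 of the 5 arrays lay below every ethanol array. The group means ± SD were 2.00 ± 0.10 for ethanol, 1.95 ± 0.29 for SANT-2, 1.94 ± 0.23 for GANT-61 and 1.21 ± 0.22 for cyclopamine (n = 5 each). In that order the first 3 neighbours did not differ beyond their spread, and the step fell between GANT-61 and cyclopamine.

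Relative to ethanol, myod1 fell by 0.79 ± 0.15 (SE) on the log2 scale with cyclopamine, a level 1.73-fold lower (95% interval 1.40 to 2.15; adjusted p = 0.00603, limma). The difference on single slides ranged from -0.86 to -0.62, and within pairs of the same replicate number from -1.09 to -0.61. With slide as a block the adjusted p was 2.17e-04. The call held in each of the 10 fits that left out 1 array.

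The gene chrna1 encodes the alpha subunit of the muscle acetylcholine receptor, the subunit that carries most of the transmitter's binding site. Its levels were 0.17, 0.07, 0.42, 0.53 and 0.03 on the ethanol arrays and -0.44, -0.78, -0.25, -0.20 and -0.63 on the cyclopamine arrays. The 2 groups did not overlap, as for 1.4% of all genes in this direction, and replicates 3 and 4 were the highest in both.

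With SANT-2 the levels of chrna1 were 0.11, -0.10, 0.11, 0.32 and 0.01. With GANT-61 they were -0.17, -0.40, 0.00, 0.21 and -0.09. The SANT-2 arrays lay within or just under the ethanol range, and 4 of the 5 GANT-61 arrays lay below every ethanol array. The order of the group means was ethanol at 0.25 ± 0.22, SANT-2 at 0.09 ± 0.15, GANT-61 at -0.09 ± 0.23 and cyclopamine at -0.46 ± 0.25 (SD, n = 5 each). In the model with 1 mean per group and no other term, no pair of neighbours in this order was called, though GANT-61 and cyclopamine were with array weights (-0.49, adjusted p = 0.0307).

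With cyclopamine chrna1 differed from ethanol by -0.70 ± 0.14 (SE) on the log2 scale, a level 1.63-fold lower (95% interval 1.33 to 2.00; adjusted p = 0.0142, limma). The difference was -0.73 to -0.66 on the 4 slides, and the adjusted p was 8.36e-04 with slide as a block. The call was lost without ethanol replicate 4 (-0.63, adjusted p = 0.0602), without cyclopamine replicate 2 (-0.62, adjusted p = 0.0541), and when the fit held only the 2 groups compared (adjusted p = 0.144). With GANT-61 the difference from ethanol was -0.34 ± 0.14 and did not pass the adjusted test (unadjusted p = 0.0285, adjusted p = 0.771, limma). It was below 0 on each slide, from -0.82 to -0.12, as it was for 6.97% of all genes. The difference of SANT-2 from ethanol was -0.41 on slide 2, -0.21 on slide 3 and -0.02 on slides 1 and 4. The share of all genes below 0 on each slide is not given for SANT-2.

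The gene unc45b encodes the muscle chaperone that folds the myosin head. Its levels on the ethanol arrays were 3.71, 3.72, 4.26, 3.85 and 3.57, and on the cyclopamine arrays 3.15, 3.37, 3.88, 3.15 and 3.13. Replicate 3, on slide 2, was the highest in both groups, and the cyclopamine array of that number was the one that reached into the ethanol range. The other 4 cyclopamine arrays were below all 5 ethanol arrays.

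With SANT-2 the levels of unc45b were 3.78, 4.07, 4.34, 3.71 and 3.56, and with GANT-61 they were 3.75, 4.00, 3.88, 3.85 and 3.80. Both groups overlapped with ethanol. The means were 3.89 ± 0.31 with SANT-2, 3.85 ± 0.10 with GANT-61, 3.82 ± 0.26 with ethanol and 3.34 ± 0.32 with cyclopamine (SD, n = 5 each). In the model with 1 mean per group and no other term, no neighbours in this order were called different.

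The cyclopamine difference of unc45b was -0.49 ± 0.17 (SE), 1.40-fold (95% interval 1.098 to 1.79), with an unadjusted p of 0.00927 and an adjusted p of 0.412 in limma. It was between -0.70 and -0.38 on the 4 slides. Once slide was a block the adjusted p was 0.00547, and a replicate block gave 0.0192. Without a block, unc45b was called with quantile normalization (adjusted p = 0.0147), the authors' deposited table (0.00483), array weights (0.0281) and without slide 2 (0.0115).

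The gene hsp90aa1.1 encodes a cytosolic Hsp90 that in the zebrafish embryo is expressed mainly in skeletal muscle and works with Unc45b on myosin. Its levels were 4.55, 4.45, 5.32, 4.54 and 4.24 with ethanol and 4.12, 3.89, 4.78, 3.85 and 3.93 with cyclopamine. As for unc45b, replicate 3 on slide 2 was the highest array of both groups, and with cyclopamine it alone was above any ethanol array.

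The levels of hsp90aa1.1 were 4.58, 4.56, 4.84, 4.27 and 4.20 with SANT-2, and 4.64, 4.22, 4.47, 4.46 and 3.95 with GANT-61. All of these ranges overlapped. The order was ethanol at 4.62 ± 0.41, SANT-2 at 4.49 ± 0.26, GANT-61 at 4.35 ± 0.27 and cyclopamine at 4.12 ± 0.39 (SD, n = 5 each), again with no neighbours called different in that model.

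For hsp90aa1.1 the difference between cyclopamine and ethanol was -0.50 ± 0.21 (SE), 1.42-fold (95% interval 1.05 to 1.92; unadjusted p = 0.0263, adjusted p = 0.708, limma). On single slides it ranged from -0.69 to -0.31. Without ethanol replicate 3 the difference was -0.33. The adjusted p was 0.116 with slide as a block and 0.0478 with a replicate block. A tandem neighbour of similar sequence, hsp90aa1.2, had a difference of -0.42 ± 0.19 (adjusted p = 0.874). Whether the 2 probes hybridise to both transcripts was not tested.

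The gene desma encodes desmin, the intermediate filament protein that links the Z-discs of neighbouring myofibrils. Its levels were 4.93, 4.54, 5.73, 5.32 and 4.46 with ethanol and 4.70, 3.79, 5.25, 4.96 and 4.00 with cyclopamine. The arrays of both groups ran in parallel: replicates 3 and 4 were high and replicates 2 and 5 low in each, and the groups overlapped.

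With SANT-2 the levels of desma were 5.01, 4.96, 5.57, 5.41 and 4.79, and with GANT-61 they were 4.91, 4.98, 5.04, 5.49 and 4.90. These ranges lay within that of ethanol. The means were 5.15 ± 0.33 with SANT-2, 5.06 ± 0.25 with GANT-61, 5.00 ± 0.53 with ethanol and 4.54 ± 0.63 with cyclopamine (SD, n = 5 each), and no neighbours in this order were called different in that model.

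The cyclopamine difference of desma was -0.46 ± 0.28 (SE), with a 95% interval of -1.04 to 0.12 and an adjusted p of 1.00 (unadjusted p = 0.116, limma). It was between -0.50 and -0.36 on single slides and between -0.76 and -0.24 within pairs. Without cyclopamine replicate 2 the difference was -0.27. With a slide or a replicate block the adjusted p was 0.283 and 0.199. Among the 5 genes desma had the widest spread around its group means, with a residual SD of 0.46, against 0.22 for myod1, 0.21 for chrna1, 0.26 for unc45b and 0.34 for hsp90aa1.1. The median residual SD over all genes tested was 0.32.

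**Figure D2:**
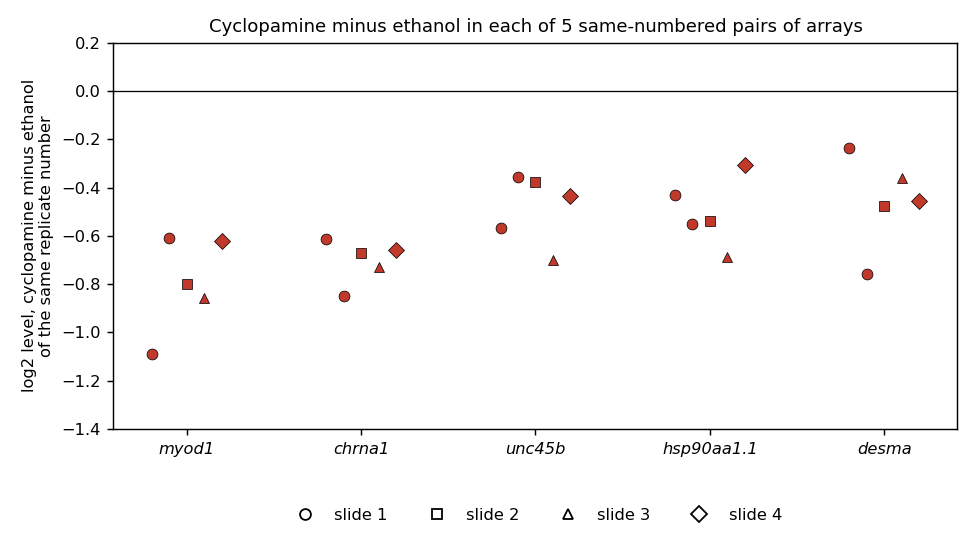
Log2 level with cyclopamine minus log2 level with ethanol for the 5 pairs of arrays with the same replicate number, each pair on 1 slide. All 25 points lie below 0, between -1.09 and -0.24.

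SANT-2 gave no call for any of the 5 genes, and 0 of all 11433 genes (0%) was called against ethanol in limma, where 128 genes had an unadjusted p under 0.05. None of the 5 was among these 128. The differences from ethanol were -0.06 for myod1, -0.15 for chrna1, 0.07 for unc45b, -0.13 for hsp90aa1.1 and 0.15 for desma. For myod1 the difference was between -0.26 and -0.20 on 3 slides and 0.09 on slide 2, which made it -0.22 without slide 2 (adjusted p = 0.994, limma) and -0.13 in the slide block. The 95% interval for myod1, -0.36 to 0.25, did not include the size of the cyclopamine difference, and that for chrna1 was -0.45 to 0.14. The interval for desma, -0.43 to 0.73, was too wide to set a close limit.

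GANT-61 likewise gave no call for the 5 genes, where 0.157% of all genes were called in either direction. Only chrna1 had an unadjusted p under 0.05. The differences were -0.06 for myod1 (95% interval -0.37 to 0.24), -0.34 for chrna1 (-0.63 to -0.04), 0.03 for unc45b (-0.32 to 0.38), -0.27 for hsp90aa1.1 (-0.71 to 0.17) and 0.07 for desma (-0.51 to 0.65). The value of hsp90aa1.1 was -0.097 without ethanol replicate 3 and -0.066 without slide 2, the slide on which the GANT-61 array differed from the ethanol array by -1.098.

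**Figure D3:**
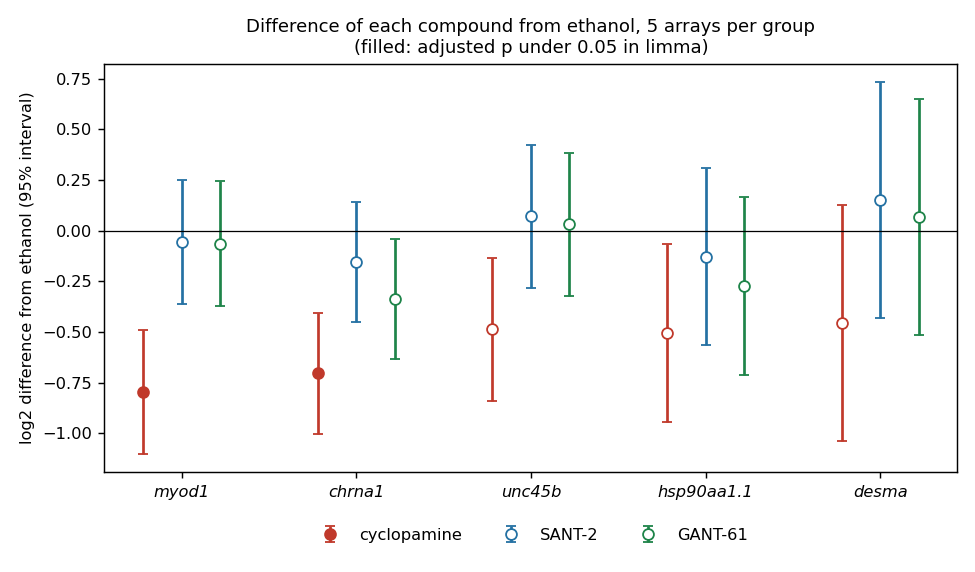
Log2 difference from ethanol with its 95% interval for each gene and compound, 5 arrays per group. Filled points passed the adjusted test. The 2 filled points are myod1 and chrna1 with cyclopamine, at -0.79 and -0.70, and the intervals of SANT-2 and GANT-61 include 0 except that of chrna1 with GANT-61.

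All compounds were given at 10 µM over the same time. Their arrays were also compared directly, as 3 pairs with p adjusted over all genes within each pair. Whether 10 µM of each compound inhibited Hedgehog signalling to the same degree was not tested. The gene myod1 was lower with cyclopamine than with SANT-2 by a log2 difference of -0.74 ± 0.15 (SE; adjusted p = 0.0136, limma) and than with GANT-61 by -0.73 ± 0.15 (adjusted p = 0.00887). It was the 1 gene of the 5 called in each of these comparisons, where 0.735% and 1.61% of all genes were called lower. The 5 cyclopamine arrays did not overlap with either group, as for 1.11% and 2.18% of all genes. On single slides the myod1 difference ranged from -0.89 to -0.36 against SANT-2 and from -0.90 to -0.52 against GANT-61. SANT-2 had 2 of its 5 arrays on slide 2, where the mean of myod1 was highest (2.06, against 1.62 to 1.75 elsewhere). These means run over unequal numbers of arrays per group. On slide 2 ethanol was at 2.16 (1.92 to 2.00 elsewhere), GANT-61 at 2.27 (1.65 to 2.06) and cyclopamine at 1.37 (0.90 to 1.38). The pooled difference from SANT-2 carries part of the difference between slides, and in the 12 other settings it was -0.74 to -0.57. The call against SANT-2 was lost without cyclopamine replicate 1 (-0.66, adjusted p = 0.05003) and without SANT-2 replicate 3 (-0.69, adjusted p = 0.0541), without slide 2 (-0.57, adjusted p = 0.0570), and with only the 2 groups in the fit (adjusted p = 0.184). Against GANT-61 it was lost only in the fit of the 2 groups (adjusted p = 0.0538).

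For chrna1 the difference was -0.55 ± 0.14 against SANT-2 (adjusted p = 0.109) and -0.37 ± 0.14 against GANT-61 (adjusted p = 0.367). A replicate block gave here adjusted p-values of 3.37e-04 and 0.00579. With slide as a block the chrna1 differences were -0.53 (adjusted p = 0.0128) and -0.30 (adjusted p = 0.124). On slide 2 the single cyclopamine array was above the GANT-61 array by 0.15, and on the other slides it was below.

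For unc45b cyclopamine differed by -0.56 ± 0.17 from SANT-2 (adjusted p = 0.266) and by -0.52 ± 0.17 from GANT-61 (adjusted p = 0.191). The replicate block gave adjusted p-values of 0.00810 and 0.00762, and the slide block 0.0109 and 0.00247, each with the difference below 0. The adjusted p was under 0.05 without cyclopamine replicate 3, at 0.0342 against SANT-2 (-0.69) and 0.0283 against GANT-61 (-0.65). That was the only cyclopamine array on slide 2, where unc45b was highest, while the SANT-2 and GANT-61 arrays of slide 2 stayed in. These 2 larger differences therefore carry part of the difference between slides. Within slide 2 the differences were -0.32 and -0.12, and with slide as a block they were -0.46 and -0.51.

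The differences of hsp90aa1.1 were -0.38 ± 0.21 and -0.23 ± 0.21, and those of desma -0.61 ± 0.28 and -0.52 ± 0.28, against SANT-2 and GANT-61 in that order. None of these 4 passed the adjusted test, with or without a block. The intervals for desma, -1.19 to -0.03 and -1.11 to 0.06, leave room for a difference of more than 2-fold. With slide as a block, 1.37% of all genes were called lower with cyclopamine than with SANT-2 and 3.59% than with GANT-61, and with the replicate block 1.67% and 3.78%.

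SANT-2 and GANT-61 were not called different for any of the 5 genes, nor was any unadjusted p under 0.05, while 0.262% of all genes were called. The differences of SANT-2 from GANT-61 were 0.01 for myod1 (95% interval -0.30 to 0.31), 0.18 for chrna1 (-0.12 to 0.48), 0.04 for unc45b (-0.31 to 0.39), 0.14 for hsp90aa1.1 (-0.29 to 0.58) and 0.08 for desma (-0.50 to 0.66).

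The 5 genes varied together to different degrees. After the mean of each slide was subtracted, Pearson's r over the 20 arrays was 0.83 between myod1 and unc45b, 0.82 between chrna1 and hsp90aa1.1, 0.81 between chrna1 and desma, and 0.75 between chrna1 and unc45b. The lowest values were those of myod1 with hsp90aa1.1, 0.45, and with desma, 0.29. These values describe the arrays and include the differences between groups.

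The same measure includes group differences, so a gene that shares them ranks high, and its own fall is no separate evidence. By this measure, the genes most like myod1 were fhl1a at 0.97, foxa at 0.96 and actc2 at 0.96. All 3 fell with cyclopamine, fhl1a by a log2 difference of -3.16 ± 0.33 (SE), actc2 by -2.72 ± 0.28 and foxa by -1.50 ± 0.17 (adjusted p = 8.97e-06, 8.72e-06 and 3.89e-05, limma). The change of myod1 was thus the smallest of these 4. Those most like unc45b were foxb1a, nkx3-2 and foxd1, each at 0.94, and all 3 fell as well, by -1.02 ± 0.16, -2.71 ± 0.26 and -1.06 ± 0.20 (adjusted p = 0.00143, 5.08e-06 and 0.00937). The call of foxd1 was lost with only the 2 groups in the fit (adjusted p = 0.125).

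The genes most like chrna1 were vcanb at 0.95, fstb at 0.92 and arpp21 at 0.91. Of these arpp21 was called lower with cyclopamine (-0.90 ± 0.18, adjusted p = 0.0120), a call lost without ethanol replicate 4 (-0.82, adjusted p = 0.0510), without slide 2 (-0.79), after normexp background correction (-0.66) and with only the 2 groups in the fit. The differences were -1.07 ± 0.31 for vcanb and -0.66 ± 0.17 for fstb (adjusted p = 0.176 and 0.0924). Both were called in limma with the replicate block (adjusted p = 0.00146 and 4.35e-04), array weights (0.0388 and 0.00596) and slide as a random block (0.0158 and 0.0252). In addition, vcanb was called with slide as a block (adjusted p = 0.0281). For fstb the further calls came with each array's median (adjusted p = 0.0478) and without slide 2 (0.0269). With GANT-61 the 3 had differences of -0.52, -0.38 and -0.28, against -0.34 for chrna1, all from the same ethanol arrays. The ranking itself used these arrays, so this likeness is no separate evidence.

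The gene most like hsp90aa1.1 was its neighbour hsp90aa1.2 at 0.90, followed by purbb at 0.90 and slc18a3a at 0.88. Those most like desma were pygma at 0.94, the muscle glycogen phosphorylase, cacna1sb at 0.94, a calcium channel subunit of the muscle membrane, and chrnd at 0.93, the delta subunit of the acetylcholine receptor. None of these 6 was called with cyclopamine, and their differences were between -0.83 and -0.36.

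Lists of related genes were described in the same way, and of all 11433 genes 613 had an unadjusted p under 0.05 with cyclopamine against ethanol. Of 25 muscle regulators tested, myod1 was the only one called with cyclopamine, the median difference was 0.00, and 2 had an unadjusted p under 0.05. The myod1 relatives myf5 and myog, named here after their values were seen, had differences of -0.18 ± 0.26 and -0.17 ± 0.17 (adjusted p = 1.00 for both). Both belong to the same family of factors, myf5 acting beside myod1 in commitment and myog in the later differentiation of fibres.

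Of 11 tested genes of the neuromuscular junction and of muscle excitation, 10 had differences below 0 and 2 were called, chrna1 and rapsn, with a median of -0.49 and 3 unadjusted p-values under 0.05. Over all genes tested 0.84% were called lower, and the median was 0.03. Without chrna1, 9 of 10 were below 0, 1 was called and the median was -0.46. The gene rapsn encodes rapsyn, which clusters the acetylcholine receptors under the nerve ending. Its level was -3.84 to -3.48 with ethanol, with a median of -3.65. With cyclopamine it was -4.82 to -3.96, with a median of -4.20, so that the groups did not overlap, as for 1.4% of all genes. It differed by -0.67 ± 0.15 (SE; adjusted p = 0.0320, limma), and the call was lost without ethanol replicate 1, 2, 3 or 4 or cyclopamine replicate 2, 4 or 5, with differences of -0.70 to -0.54 and adjusted p-values up to 0.0975. It was lost as well without slide 2 (adjusted p = 0.102), without a filter on dim probes (adjusted p = 0.0534) and with only the 2 groups (adjusted p = 0.195). After normexp background correction the difference of this dim probe was -0.19 (adjusted p = 0.954). The receptor subunit gene chrnd had a difference of -0.41 ± 0.22 (adjusted p = 1.00).

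None of the 29 genes for chaperones and cochaperones of myosin was called in limma, 8 had an unadjusted p under 0.05, and the median was -0.14. The 29 include unc45b and hsp90aa1.1. Of the 27 without these, 6 had an unadjusted p under 0.05, and the median was -0.09. The partner smyd1b, a methyltransferase needed for myosin assembly in the zebrafish, had a difference of -0.38 ± 0.19 (adjusted p = 0.993). The widely expressed Hsp90 gene hsp90ab1 had one of 0.28 ± 0.13 (adjusted p = 0.919), opposite in sign to those of hsp90aa1.1 and hsp90aa1.2. None of 11 genes of the heat shock and unfolded protein responses was called, 1 had an unadjusted p under 0.05, and their median was -0.16.

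Among 17 genes of intermediate filaments, costameres and Z-disc linkers, 12 had differences below 0, the median was -0.24 and 3 had an unadjusted p under 0.05. Without desma, which is in this list, 11 of 16 were below 0 and the median was again -0.24. The 1 called was xirp1, whose product binds actin at the ends and junctions of muscle fibres. Its level ran from 0.05 to 0.34 with ethanol, with a median of 0.17, and from -0.78 to -0.48 with cyclopamine, with a median of -0.61. The groups were apart, as for 1.4% of all genes, and the difference was -0.80 ± 0.13 (SE; adjusted p = 0.00201, limma). No gene of these 5 lists was called with SANT-2 or GANT-61 against ethanol.

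**Figure D4:**
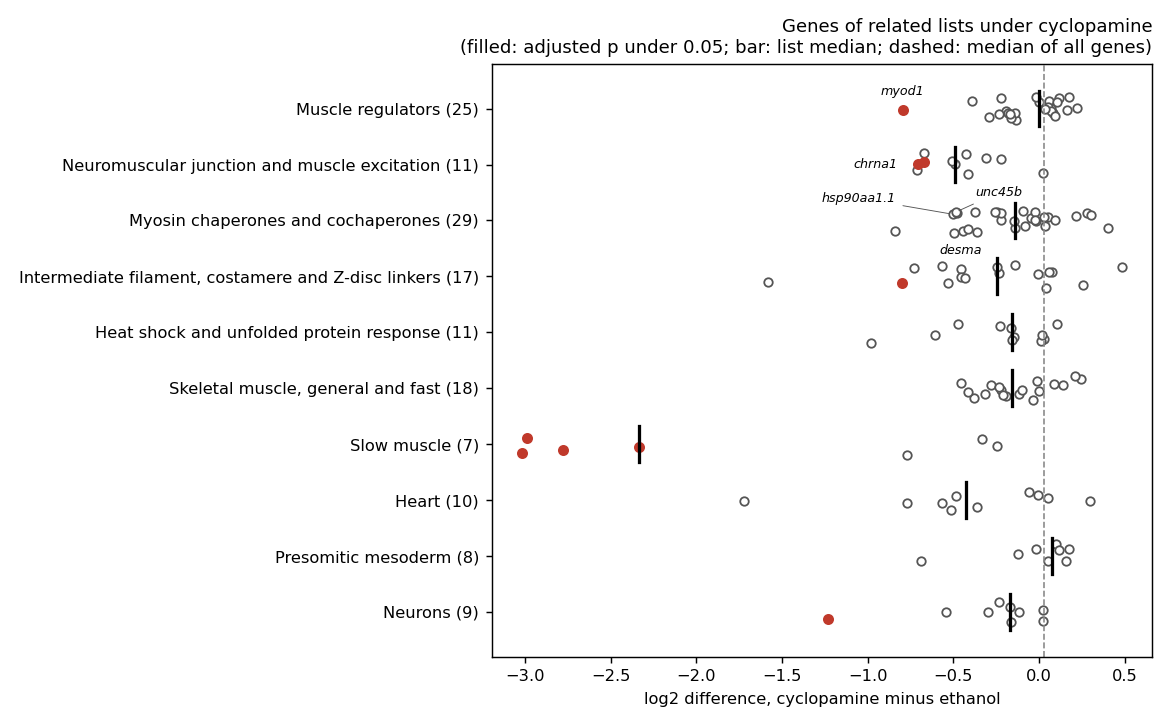
Log2 difference between cyclopamine and ethanol for each tested gene of the lists, with the number tested in brackets. Filled points passed the adjusted test, bars are list medians, and the dashed line is the median over all genes, 0.03. The slow muscle list lies farthest to the left with a median of -2.33.

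Markers of fibre types and other tissues moved with cyclopamine to different degrees. Of 7 tested slow muscle markers 4 were called lower (smyhc1, myl10, myl13 and tnnc1b), and the median was -2.33. All 7 differences were below 0, and 6 had an unadjusted p under 0.05 in limma. The summed level of the 7 lay between 7.02 and 7.67 on the ethanol arrays and between 3.48 and 5.52 on the cyclopamine arrays. The 18 tested markers of fast and general skeletal muscle gave no call and no unadjusted p under 0.05 in limma, with a median of -0.16 and summed levels of 7.62 to 8.84 with ethanol and 7.19 to 8.66 with cyclopamine. The differences of all 5 genes lay between those 2 medians. The part of a change in slow muscle in the values of the 5 genes was not tested.

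Of 10 heart markers none was called in limma and 6 had an unadjusted p under 0.05, with a median of -0.42. Their summed level was 2.88 to 3.38 with ethanol and 2.52 to 3.04 with cyclopamine. One gene, myh7, stood in both the slow muscle and the heart list through its synonyms. Of 9 neuronal markers 1 was called lower, phox2a, and the median was -0.17. Differences were below 0 for 7 of the 9, and 2 had an unadjusted p under 0.05 in limma. None of 8 markers of presomitic mesoderm was called or had an unadjusted p under 0.05, and their median was 0.08. The part of these tissues in the differences of the 5 genes was not tested.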

How the data were processed

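Scanner output of 20 1-colour arrays was used. Per the file headers, the authors' files hold background-subtracted Cy3 intensity from Agilent Feature Extraction 10.1.1.1, not normalized between arrays. The deposited table of log2 values (column medians 7.20 to 7.22), whose centring method is not given in the sources used here, correlated with the log2 scanner signals at 0.998 to 1.00 and served as an alternative.

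Control spots and 158 outlier spots in all were left out, intensities were taken to log2, and each array's 75th percentile was subtracted. Names came from the RefSeq gene table, assembly GRCz12tu, used for names only: 9185 of 14694 probes matched a symbol and 5509 did not. For 37 genes with several probes the brightest was kept. Genes whose probe reached well above background on fewer than 4 arrays in every group of 5 were set aside (3224 of 14657). limma 3.58.1 in R 4.3.3 fitted 1 mean per group over 20 arrays, two-sided, with Benjamini-Hochberg adjustment within each comparison. The procedure was tested on simulated data, with 50 genes lowered by each of 4 log2 sizes in the cyclopamine group. It recovered 20% at 0.5, 50% at 0.8, 72% at 1 and 96% at 2, with 8 false calls. A fall of 0.5 was thus mostly missed in the simulation. It drew independent noise for each array without slide effects, and the lowered genes were picked at random. These shares therefore do not give the recovery for the 5 genes. For arrays, the number of arrays limits the precision.

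The genes and lists were chosen with earlier results of these data known. Named genes are the 5, the 3 genes most correlated with each, list genes called against ethanol, and otherwise partners or paralogues. Correlations of deviations from the group means between arrays of the same replicate number were 0.46 to 0.82 for cyclopamine and ethanol, 0.26 to 0.80 for cyclopamine and SANT-2, 0.21 to 0.60 for cyclopamine and GANT-61 and 0.14 to 0.63 for SANT-2 and GANT-61, so the number was taken as a pair there. In 3 to 5 of the 5 pairs it also meant the same slide. Over all comparisons, pairs on the same slide gave 0.46 to 0.82 and pairs on different slides -0.04 to 0.26. These values therefore do not show a pairing by number beyond the slide. Against ethanol the lowest correlation was -0.01 with SANT-2 and -0.04 with GANT-61, and these groups were not taken as paired. Alternatives changed scaling, background correction, source, filter, block, weights, groups in the fit and the arrays included. Promoter and protein sequences were not analysed here.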

Additional observations from a re-analysis of the deposited data

Results flagged for a closer look

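With 5 genes and 4 groups, 20 sets of 5 arrays were examined for an array far from the others, and 2 had one. Chance gives about 1 in 20 such sets. For hsp90aa1.1, cyclopamine replicate 3 was the highest of its group at 4.78, with the next array at 4.12, a gap of 0.711 of the whole range. That array lay on slide 2, where the ethanol array of hsp90aa1.1 was also the highest of its group. Without it the difference from ethanol was -0.67 in place of -0.50, with an adjusted p of 0.178 in limma. For desma, GANT-61 replicate 4 was the highest of its group at 5.49, with the next at 5.04, a gap of 0.767 of the range. Without it the difference of desma from ethanol was -0.04 in place of 0.07 (adjusted p = 0.990).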

How the results depend on the processing

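The call of myod1 against ethanol held in all 12 other settings run and in the 10 fits without 1 array, and that against GANT-61 was lost only with 2 groups in the fit (adjusted p = 0.0538). For cyclopamine against ethanol the count of called genes, 100, was 57 with normexp on median signals without flagged spots, 248 with slide as a block, 256 with the replicate block, 201 with array weights, 286 with slide as a random block and 53 with only the 2 groups, and calls among the 5 genes went from 2 to 4 with the replicate block and to 1 with only the 2 groups (chrna1 -0.70, adjusted p = 0.144). In the replicate block, unc45b (-0.49, adjusted p = 0.0192) and hsp90aa1.1 (-0.50, adjusted p = 0.0478) were called as well. With slide as a block hsp90aa1.1 was not called (adjusted p = 0.116). unc45b was also called with quantile normalization (-0.53), the authors' table (-0.56), slide as a block (-0.49), array weights (-0.49), slide as a random block (-0.49) and without slide 2 (-0.51). Without 1 array, calls among the 5 ranged from 1 to 2, chrna1 from -0.77 to -0.62, hsp90aa1.1 from -0.67 to -0.33 and desma from -0.64 to -0.27.

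For SANT-2 against ethanol, array weights called 3 genes in place of 0. The difference of unc45b, 0.07, was -0.017 with the authors' table, -0.024 with slide as a block, -0.027 without slide 2 and -0.011 with slide as a random block. Without 1 array unc45b ranged from -0.040 to 0.18, hsp90aa1.1 from -0.22 to 0.046 desma from 0.015 to 0.33 and myod1 from -0.16 to 0.00014, and myod1 was -0.22 without slide 2.

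For GANT-61 against ethanol the count of 18 was 196 with slide as a block, 138 with the replicate block, 1340 with array weights, 99 without slide 2, 168 with slide as a random block, 1 with only the 2 groups, and 11 to 31 without 1 array (11 without ethanol replicate 2, 31 without ethanol replicate 4). The replicate block, whose numbers do not pair these groups, called 1 of the 5, chrna1 (-0.34, adjusted p = 0.0363). The signs of unc45b and desma turned with quantile normalization (-0.025 and -0.010), each array's median (-0.052 and -0.016) and the authors' table (-0.039 and -0.040), and that of desma with slide as a block (-0.043) or random block (-0.028). Without 1 array unc45b ranged from -0.032 to 0.14, desma from -0.068 to 0.25, hsp90aa1.1 from -0.37 to -0.097 (-0.066 without slide 2) and myod1 from -0.15 to 0.0089.

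For cyclopamine against SANT-2 the count of 86 was 52 with normexp, 176 with slide as a block, 204 with the replicate block, 198 with slide as a random block and 35 with only the 2 groups. Calls among the 5, 1 gene, were 2 with quantile normalization and the authors' table, 3 with each block and with array weights, 0 with only the 2 groups and 0 to 2 without 1 array. Without slide 2 the count stayed at 1, but the gene called was unc45b (-0.49, adjusted p = 0.0362, limma) in place of myod1 (-0.57, adjusted p = 0.0570). For cyclopamine against GANT-61 the count of 209 was 103 with normexp, 613 with slide as a block, 646 with the replicate block, 442 with array weights, 316 without slide 2, 650 with slide as a random block and 119 with only the 2 groups. Calls among the 5, 1 gene, were 2 with quantile normalization, the authors' table, slide as a block or random block and without slide 2, 3 with the replicate block and array weights, 0 with only the 2 groups and 1 to 2 without 1 array, where hsp90aa1.1 ranged from -0.40 to -0.16 and desma from -0.70 to -0.34.

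For SANT-2 against GANT-61 the count of 30 was 18 with normexp, 113 with slide as a block, 116 with the replicate block, 56 with array weights and 127 with slide as a random block. The near-0 differences of myod1 and unc45b turned sign with slide as a block (-0.071 and -0.047), array weights (-0.048 and -0.021), without slide 2 (-0.12 and -0.13) and with slide as a random block (-0.060 and -0.035), as did hsp90aa1.1 and desma without slide 2 (-0.026 and -0.015). Without 1 array myod1 ranged from -0.097 to 0.090, unc45b from -0.071 to 0.12 and desma from -0.022 to 0.19.

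Leaving out slide 2, the random block and the flagged spots for normexp were chosen after seeing the data, the normexp fit used median signals, and each gene had 1 probe, so probes of one gene could not be compared. The block changed no other call among the 5 genes in the comparisons it pairs than those printed here and in the report. The causes of these changes were not tested. Fewer arrays were fitted where only 2 groups or fewer slides were used.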
